A study of Mus musculus with 12 samples.

Results

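A set of 10 genes that mark sensory neurons in general was followed across ribosome-bound and total RNA of mouse dorsal root ganglia (DRG). They were Avil, Isl1, Pou4f1, Rbfox3, Thy1, Uchl1, Sncg, Map2, Mapt and Ncam1, picked out of the table by symbol, and 10 of 10 were found among the 14675 Ensembl gene IDs of the deposited table. Avil also names the driver of the experiment: Advillin-Cre swaps the native last exon of Rpl22 for an HA-tagged one, so that ribosomes of the Cre-expressing cells can be captured with an anti-HA antibody (RiboTag).

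The 4 groups were IP (anti-HA pull-down) from AAV-shGpr151 plus AAV-e5'UTR, IP from AAV-shGpr151 alone, input (total RNA) from AAV-shGpr151 plus AAV-e5'UTR, and input from AAV-shGpr151 alone, each with 3 deposited columns. All animals were RPL22HA+/+;Advillin-Cre+, and every group carried the virus with a short hairpin RNA against Gpr151. A group with another hairpin was not analysed here, and the labels do not describe the e5'UTR insert (e5UTR from here on). The labels call the cells adult DRG neurons and give no exact age and no number of animals behind a column. The sources differ on the material: the design text has neurons in culture, taken after a conditioning lesion of the sciatic nerve, and the extract protocol has ganglia lysed fresh.

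Sensory neurons of the DRG carry touch, temperature, pain and body position signals to the spinal cord. Their identity is set in development by transcription factors such as Isl1 and Pou4f1 (Brn3a) and is read in mature cells from abundant neuronal proteins. In a ganglion these neurons lie among satellite glia, Schwann cells, fibroblasts, macrophages, vessels and blood. A RiboTag pull-down samples mRNA on ribosomes of the Cre-expressing cells, while input samples all RNA of all cells. In such bulk samples fewer cells of a type and less RNA per cell cannot be told apart, and an IP-to-input ratio does not separate the share of cells from the share of mRNA on ribosomes.

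The IP columns held 1514948 to 1517685 estimated counts with e5UTR and 1381220 to 1382261 with the hairpin alone, and the input columns held 975403 to 977366 with e5UTR and 984118 to 985277 with the hairpin alone. The 3 columns of a group differed by little more than counting noise: per gene, the median chi-square over its counting expectation was 1.12 and 1.09 in the IP groups and 1.08 and 1.12 in the input groups. Of 40 sets of 3 columns, 1 for each of the 10 genes in each group, only Ncam1 in input with the hairpin alone, at 18, 24 and 8 counts, had a chi-square p under 0.05 (p = 0.02). The 3 columns were therefore summed to 1 pool and counted as 1 sample, so no value below carries an SD. Levels are CPM (counts per 1e6 of the TMM-scaled library size) and carry exact 95% Poisson intervals, while ratios carry exact 95% binomial (Clopper-Pearson) intervals. Both cover counting error only. Gpr151, the hairpin's target, held 128 and 108 counts in the IP pools with and without e5UTR, and 29 and 35 counts in the matching input pools. With the hairpin in every group, these counts do not check the knockdown.

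Promoter windows were found for 7 of the 10 genes in RefSeq on GRCm38.p6, from 250 bases before to 50 after the start. A CCAAT box (CCAAT on either strand) was present in 3 of the 7, against 37.4% of 32851 windows of the same length, and a GC box (GGGCGG on either strand) in another 3, against 35.7%. Neither was found in the window of Uchl1. ATTAAT, the core of the site bound by POU class IV factors such as Pou4f1, was present in 0 of the 7 and in 4.75% of all windows. The windows show how differently the 7 genes begin: that of Pou4f1 held 57 CpG, those of Isl1 and Map2 37 each, those of Uchl1 and Sncg 9 each, that of Rbfox3 4 and that of Avil 2, against a median of 7 over all windows. One 30-base stretch is given for each gene with a match, on the gene's strand with the match in capitals, to show the CpG-poor start of the driver gene Avil beside the CpG-rich starts of the transcription factors. A match is a run of letters and not a shown binding site.
Avil, chr10:127000652-127000681, plus strand: aggttggctgtgATTGGccagagctaggag
Rbfox3, chr11:118761104-118761133, minus strand: gtctccttgcttATTGGcagtagggaactt
Isl1, chr13:116309705-116309734, minus strand: cgctgcgtcagaCCAATggcgatggagctg
Map2, chr1:66175273-66175302, plus strand: ggggcgcgcacgGGGCGGcgctcgggctgc
Sncg, chr14:34374730-34374759, minus strand: cttctctctggcCCGCCCtccctgccccca
Pou4f1, chr14:104468167-104468196, minus strand: gcgcgcgcccgcCCGCCCgctcgctcgccc

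Set against input, the IP held more of 6 genes, less of 2 and no called difference in 2. Thy1 and Avil had the largest IP excess of the 10, followed by Pou4f1, Uchl1, Sncg and Ncam1, while Map2 and Mapt, which encode microtubule-associated proteins, were lower in IP than in input. A gene was called at a Benjamini-Hochberg adjusted p of at most 0.05 in edgeR's quasi-likelihood test on the 4 pools (2 IP and 2 input). Of 8085 genes tested, 69.7% were called, 33.5% higher and 36.2% lower in IP, so 8 of 10 called in either direction is near the background. The median log2 ratio of IP to input was 0.54 over the 10 genes and 0.06 over all genes tested. All 10 genes passed the filter on low counts. Isl1 and Pou4f1 reached its level, 8.45 CPM of the unscaled library total, in all 6 IP columns but in only 2 of 6 input columns, so their pass rested on IP.

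These log2 ratios rest on TMM scaling, which took the middle of the genes as unchanged. Scaling to the library totals instead moved the median of all genes by 0.93, to 0.99, with 5031 genes called higher and 1895 lower in IP against 2706 and 2928 with TMM. It called 8 of the 10 higher and 0 lower, and turned the sign of Isl1 to 0.88 and of Map2 to 0.32. Relative to the median of all genes, the 2 scalings gave the same value within 0.01 for each of the 10 genes, from 2.33 for Thy1 to -1.17 for Mapt.

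**Figure D1:**
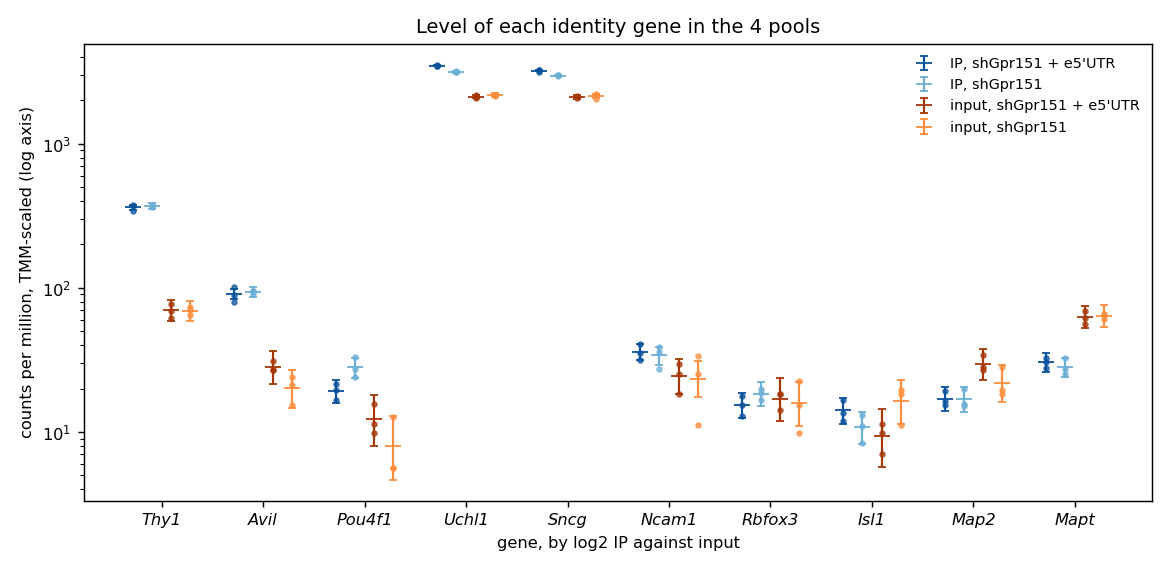
Level of each of the 10 genes in the 4 pools, in CPM on a log axis with exact Poisson 95% intervals, IP pools left of input pools. Thy1 and Avil stand far higher in both IP pools than in both input pools, and Mapt stands lower in both IP pools.

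Avil (ENSMUSG00000025432, chromosome 10) encodes advillin, an actin-binding protein of the gelsolin family found in sensory and some other peripheral neurons. Its counts were 187, 212 and 166 in the IP columns with e5UTR and 183, 181 and 174 in those with the hairpin alone, against 19, 22 and 19 in input with e5UTR and 17, 11 and 15 in input with the hairpin alone. Per column, Avil ran from 79.6 to 102 CPM in IP and from 15.5 to 31.1 CPM in input, with no overlap. In CPM the IP pools stood at 90.3 (83.0 to 98.1) and 93.5 (85.8 to 102), against 28.2 (21.6 to 36.4) and 20.1 (14.6 to 27.1) in input. The log2 ratio was 1.92 ± 0.17, which is 3.8-fold, with an edgeR adjusted p of 2.6e-07. Here and below, the value after ± is an SE back-calculated from the test. It is the absolute log2 ratio over the square root of the F statistic. Within the treatments the ratio of Avil was 3.2 (2.45 to 4.24) with e5UTR and 4.64 (3.4 to 6.49) with the hairpin alone. The driver gene was thus higher in the IP of both treatments.

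Of the 2 transcription factors, Pou4f1 was called higher in IP and Isl1 was not called. Their IP-to-input ratios separated with the hairpin alone, where that of Pou4f1 was 5.31 (2.67 to 10.9) times that of Isl1, and not with e5UTR, where it was 1.06 (0.524 to 2.11) times. Isl1 (ENSMUSG00000042258, chromosome 13), a LIM-homeodomain factor of sensory and motor neurons, had 28, 25 and 35 counts in IP with e5UTR and 21, 16 and 25 in IP with the hairpin alone, against 5, 7 and 8 and 13, 14 and 8 in the matching input columns. Its CPM in IP, 14.1 (11.3 to 17.3) and 10.8 (8.26 to 13.8), overlapped that in input, 9.42 (5.75 to 14.5) and 16.4 (11.4 to 22.8). The log2 ratio was -0.05 ± 0.29 with an edgeR adjusted p of 0.88, an estimate too wide to say that IP and input were alike. Its ratio was 1.49 (0.911 to 2.56) with e5UTR and 0.657 (0.427 to 1.02) with the hairpin alone, on opposite sides of 1 with intervals that both include it. Pou4f1 (ENSMUSG00000048349, chromosome 14), a POU-homeodomain factor needed for sensory neuron subtype programs, had 35, 41 and 45 counts in IP with e5UTR and 52, 63 and 46 in IP with the hairpin alone, against 11, 8 and 7 and 4, 9 and 4 in input. Per column, Pou4f1 ran from 16.8 to 32.9 CPM in IP and from 5.63 to 15.5 CPM in input. The IP pools stood at 19.3 (16.0 to 23.1) and 28.0 (23.8 to 32.7) CPM. The input pools stood at 12.2 (8.0 to 17.9) and 7.97 (4.64 to 12.8) CPM. These intervals overlapped with e5UTR and not with the hairpin alone. IP over input was 1.22 ± 0.28 on the log2 scale, or 2.33-fold, with an edgeR adjusted p of 0.00162. Pou4f1 entered this test through its IP columns, the fraction where it was higher, so the call carries that limit. Within the treatments the Pou4f1 ratio was 1.58 (1.03 to 2.52) with e5UTR and 3.51 (2.13 to 6.18) with the hairpin alone.

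Rbfox3 (ENSMUSG00000025576, chromosome 11), the splicing factor detected by the NeuN antibody, lay at the middle of all genes. It had 27, 32 and 37 counts in IP with e5UTR and 38, 32 and 36 in IP with the hairpin alone, against 13, 13 and 10 and 11, 7 and 16 in input. The CPM of the IP pools, 15.3 (12.4 to 18.7) and 18.4 (15.1 to 22.3), overlapped those of the input pools, 16.9 (11.9 to 23.5) and 15.9 (11.0 to 22.3). Its log2 ratio was 0.04 ± 0.22 with an edgeR adjusted p of 0.895, and 0.97 with library totals (adjusted p 0.00116), where the median of all genes was 0.99. Within the treatments the ratio of Rbfox3 was 0.905 (0.611 to 1.37) with e5UTR and 1.16 (0.779 to 1.76) with the hairpin alone.

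Of the cell surface proteins, Thy1 (ENSMUSG00000032011, chromosome 9), a GPI-anchored glycoprotein of neurons and T cells, had the highest ratio of the 10 genes. It had 781, 767 and 708 counts in IP with e5UTR and 717, 712 and 692 in IP with the hairpin alone, against 49, 44 and 55 and 50, 52 and 46 in input. Per column, Thy1 ran from 340 to 375 CPM in IP and from 62.2 to 77.7 CPM in input. The log2 ratio was 2.39 ± 0.13, or 5.24-fold, with an edgeR adjusted p of 1.2e-09. The ratio hardly varied between treatments, at 5.17 (4.38 to 6.15) with e5UTR and 5.32 (4.5 to 6.32) with the hairpin alone. Ncam1 (ENSMUSG00000039542, chromosome 9), a homophilic adhesion molecule of neurons and of glia, had 66, 85 and 73 counts in IP with e5UTR and 74, 69 and 52 in IP with the hairpin alone, against 18, 13 and 21 and 18, 24 and 8 in input. It stood at 35.8 (31.3 to 40.8) and 33.9 (29.3 to 39.0) CPM in the IP pools, against 24.5 (18.3 to 32.1) and 23.4 (17.4 to 30.9) in the input pools, and single columns of the fractions overlapped. Ncam1 was called at 0.54 ± 0.18 with an edgeR adjusted p of 0.018. The call was lost without the third input column of the hairpin alone (0.39, adjusted p 0.0886), without the input pool with e5UTR (0.57, adjusted p 0.0783), without the input pool of the hairpin alone (0.51, adjusted p 0.118) and with DESeq2 (0.52, adjusted p 0.149).

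Both abundant cytosolic proteins, Uchl1 and Sncg, were moderately higher in IP. Uchl1 (PGP9.5; ENSMUSG00000029223, chromosome 5), a ubiquitin hydrolase used as a nerve stain, had 7204 to 7308 counts in the 3 IP columns with e5UTR and 6012 to 6096 in those with the hairpin alone, against 1468 to 1537 and 1532 to 1552 in the input columns with and without it. It stood at 3475 (3429 to 3522) and 3155 (3109 to 3201) CPM in IP, against 2117 (2056 to 2180) and 2171 (2108 to 2234) in input. The log2 ratio was 0.63 ± 0.10, or 1.55-fold, with an edgeR adjusted p of 8.3e-05. Sncg (ENSMUSG00000023064, chromosome 14), gamma-synuclein, had 6582 to 6778 counts in IP with e5UTR and 5652 to 5721 in IP with the hairpin alone, against 1467 to 1507 and 1451 to 1564 in input. It stood at 3211 (3166 to 3255) and 2966 (2922 to 3011) CPM in IP, against 2101 (2040 to 2164) and 2137 (2075 to 2200) in input. Its log2 ratio was 0.54 ± 0.10, or 1.46-fold, with an edgeR adjusted p of 2.7e-04. In both genes the IP pools lay above the input pools without overlap. Together they made up 92.0% and 91.1% of the 10 genes' counts in the IP pools and 94.3% and 94.7% in the input pools, as counts not divided by transcript length. GRCm38 annotates an antisense gene, Uchl1os, over Uchl1. It has no row in the table, and since the sources used here do not give the strand setting of the counting, reads of the pair cannot be told apart. Rbfox3, Map2, Mapt and Ncam1 also overlap annotated genes that have no row, and the same limit holds for them.

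Both microtubule-associated proteins, Mapt and Map2, were called lower in IP. Mapt (ENSMUSG00000018411, chromosome 11), which encodes tau, had 68, 64 and 58 counts in IP with e5UTR and 48, 52 and 62 in IP with the hairpin alone, against 49, 44 and 40 and 46, 43 and 47 in input. The raw counts overlapped, but the IP libraries were larger and had TMM factors of 1.375 and 1.388, against 0.725 and 0.722 in input. In CPM Mapt stood at 30.4 (26.2 to 35.0) and 28.2 (24.0 to 32.8) in IP, against 62.6 (52.4 to 74.2) and 63.7 (53.5 to 75.4) in input. The log2 ratio was -1.11 ± 0.15, or 0.46-fold, with an edgeR adjusted p of 2.2e-05, and with library totals it was -0.18 with an adjusted p of 0.297. Within the treatments the ratio of Mapt was 0.485 (0.387 to 0.61) with e5UTR and 0.442 (0.35 to 0.559) with the hairpin alone. Tau binds microtubules mainly in axons. Map2 (ENSMUSG00000015222, chromosome 1), its dendritic and cell body counterpart, had 40, 32 and 34 counts in IP with e5UTR and 38, 29 and 30 in IP with the hairpin alone, against 24, 19 and 20 and 14, 13 and 20 in input. In CPM it stood at 16.9 (13.9 to 20.5) and 16.9 (13.7 to 20.6) in IP, against 29.7 (22.8 to 37.9) and 22.0 (16.2 to 29.3) in input, and the intervals overlapped for the hairpin alone. Map2 was called at -0.61 ± 0.21 with an edgeR adjusted p of 0.0193. The call was lost in 7 of 27 alternatives. These were the library total (0.32, adjusted p 0.161), DESeq2 (-0.64, adjusted p 0.114), no filter on low counts (-0.49, adjusted p 0.0753) and the columns of the hairpin alone (-0.26, adjusted p 0.377). The others left out the IP pool with e5UTR (-0.52, adjusted p 0.117), the IP pool of the hairpin alone (-0.61, adjusted p 0.083) or the input pool with e5UTR (-0.38, adjusted p 0.268).

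**Figure D2:**
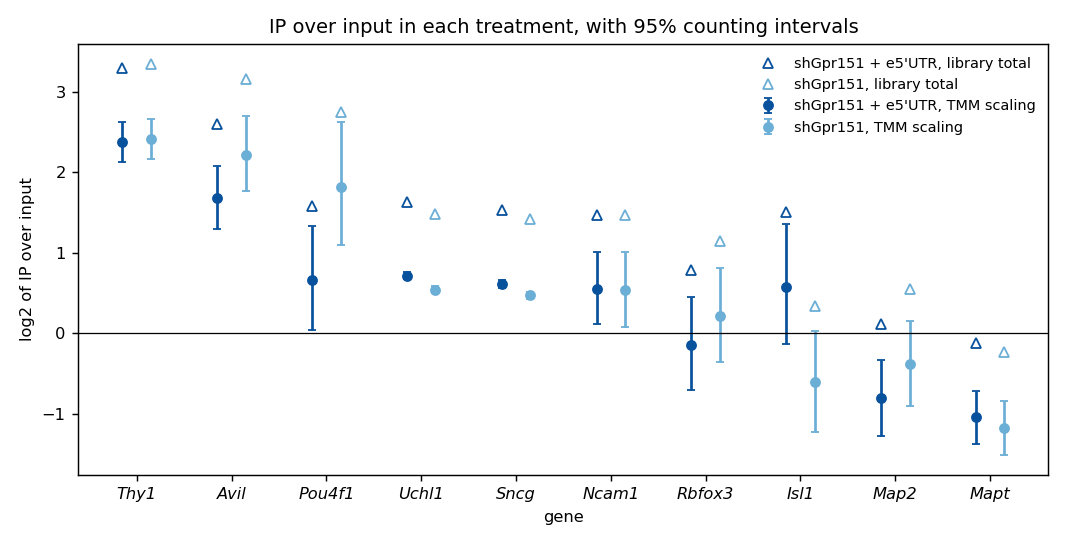
Log2 of the IP-to-input ratio of each gene within each treatment, e5UTR with the hairpin left of the hairpin alone. Filled points are TMM-scaled with 95% counting intervals and open triangles use library totals, which lie higher for every gene: Map2 is below 0 with TMM (-0.81 and -0.39) and above 0 with library totals (0.12 and 0.56), and Mapt is below 0 with both.

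The order of the 10 genes does not depend on the scaling when each ratio is divided by that of Avil, the driver gene. With e5UTR and with the hairpin alone, Thy1 stood at 1.62 (1.16 to 2.23) and 1.15 (0.785 to 1.64) times the IP-to-input ratio of Avil. Pou4f1 stood at 0.495 (0.293 to 0.852) and 0.757 (0.41 to 1.46), so it lay below Avil beyond counting error with e5UTR only. The other 7 genes lay below Avil in both treatments. Uchl1 stood at 0.514 (0.386 to 0.672) and 0.313 (0.224 to 0.428), Rbfox3 at 0.284 (0.174 to 0.467) and 0.25 (0.148 to 0.424), and Mapt lowest at 0.152 (0.105 to 0.217) and 0.0955 (0.0633 to 0.142). Of 45 pairs of the 10 genes, 23 had intervals on the same side of 1 in both treatments. Of the 9 pairs of neighbours in the order, 0 were separated in both treatments. Thy1 and Mapt, the ends of the order, were.

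**Figure D3:**
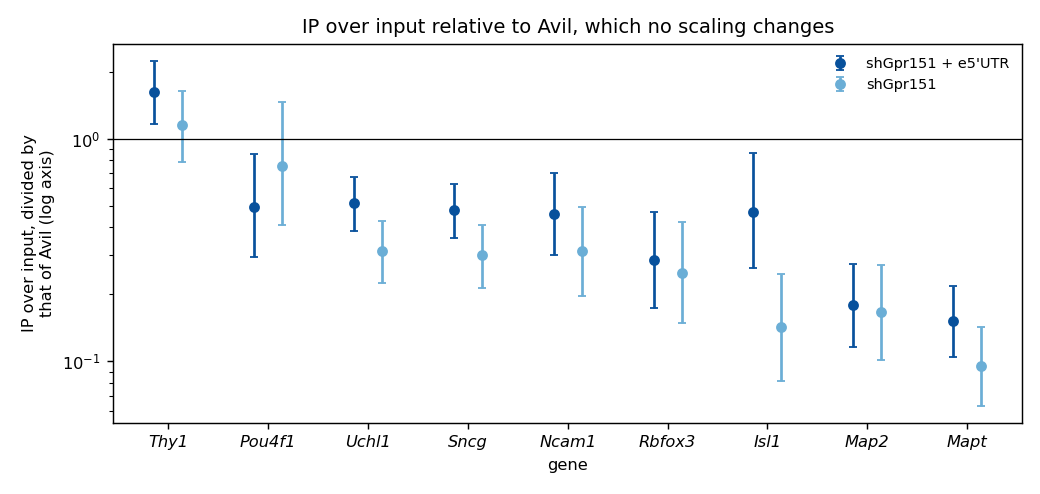
IP-to-input ratio of each gene divided by that of Avil, on a log axis with 95% intervals, for e5UTR with the hairpin and for the hairpin alone. Thy1 has its point above 1 in both treatments, with an interval that includes 1 for the hairpin alone, and 7 genes have both intervals below 1.

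Relatives of the 10 genes in the same families were also found on both sides of 0. Of 26 listed, 18 were in the table and 15 were tested, of which 9 were higher and 1 was lower in IP, with a median of 0.80. Over all genes tested, 33.5% were higher and 36.2% lower. Among microtubule-associated proteins, Map1s (2.45 ± 0.34), Map1a (1.63 ± 0.16) and Map1b (0.80 ± 0.12) were higher in IP, whereas Map4, which is widely expressed, was lower (-0.87 ± 0.12, edgeR adjusted p 2.4e-05). L1cam, an adhesion molecule of axons, was higher (1.87 ± 0.21), as was Nrcam (0.99 ± 0.22). Sncb, beta-synuclein, was higher at 1.58 ± 0.27. Rbfox2 was higher (0.76 ± 0.15), and Rbfox1 was at -0.15 ± 0.20 with an edgeR adjusted p of 0.532. Gsn and Flii, of the gelsolin family of Avil, were higher at 1.46 ± 0.15 and 2.18 ± 0.26, and Gsn is also a fibroblast marker. Map1s held 7 and 5 counts and Flii 12 and 12 in the input pools with and without e5UTR. Both lay below the filter's level there and passed it through IP, where they were higher, so their calls carry that limit. Isl2, Uchl3, Uchl5 and Nfasc had log2 ratios of -0.33, -0.29, -0.18 and -0.16 and none was called. With library totals 13 of the 15 were higher and 0 lower, and Map4 was at 0.06 and not called. By that scaling the median of all genes was 0.99, and 5031 of 8085 genes were called higher and 1895 lower.

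Of 36 tested pan-neuronal genes outside the 10, 26 were higher and 7 were lower in IP, with a median of 1.10. Over all genes tested, 33.5% were higher and 36.2% lower. The highest were Pcsk1n (2.79 ± 0.16), a secretory granule protein, and Crmp1 (2.68 ± 0.27). The lowest were Rtn1 (-1.25 ± 0.12), Snap25 (-1.21 ± 0.13), a synaptic SNARE protein, and Celf4 (-1.13 ± 0.22), so general neuronal genes other than Map2 and Mapt also lay below 0. With library totals 29 of the 36 were higher and 1, Rtn1, was lower (-0.32), and Snap25 (-0.27) and Celf4 (-0.20) were not called. Of 11 tested sensory neuron transcription factors other than Isl1 and Pou4f1, 3 were higher and 5 were lower, with a median of -0.30. These counts lie near the shares over all genes. The highest were Casz1 (1.35 ± 0.45), Prrxl1 (1.25 ± 0.30) and Zeb1 (1.05 ± 0.26), and the lowest were Etv1 (-3.28 ± 0.40), Maf (-2.98 ± 0.21) and Tlx3 (-1.46 ± 0.25). In the input pools with and without e5UTR, Crmp1 held 16 and 9 counts, Casz1 6 and 5, Prrxl1 16 and 10, and Zeb1 16 and 19. Etv1 held 7 and 8 in the matching IP pools. These pools lay below the filter's level, so the 5 genes passed it mainly or only through the fraction where they were higher. Their calls carry that limit. With library totals 6 of the 11 were higher and 2, Etv1 and Maf, were lower, where 5031 of all 8085 genes were higher and 1895 lower.

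**Figure D4:**
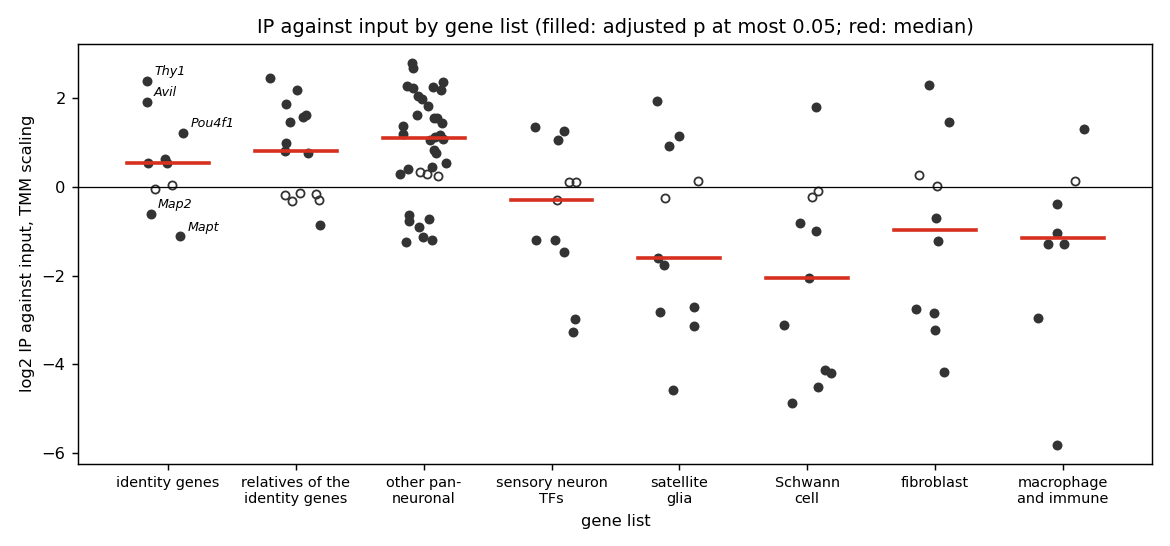
Log2 IP against input of each tested gene by list (TMM; filled: adjusted p at most 0.05, red: median of the genes drawn; genes at 0 in both IP pools are not drawn). The 10 genes and the other pan-neuronal genes lie mostly above 0, and the glial, fibroblast and immune markers mostly below. With library totals the median of all genes is 0.93 higher.

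Markers of the other cells of a ganglion moved with the fraction too. The counts of calls below stand beside 33.5% higher and 36.2% lower over all genes tested with TMM. With library totals, 5031 of 8085 genes were higher and 1895 lower. The summed CPM of the satellite glia list was 571 and 557 in the IP pools, against 2228 and 2147 in input, with 3 of 11 markers higher and 6 lower, among them Apoe (-3.14) and Sparc (-1.61) on the log2 scale. Schwann cell markers summed to 532 and 552 CPM in IP, against 1204 and 1222 in input, with 1 of 12 higher, 9 lower and Ncmap at 0 in IP. The most counted of them were S100b (-0.99, called) and Pmp22 (-0.09, not called). The summed level of both glial lists was thus lower in IP. Fibroblast markers summed to 633 and 537 CPM in IP, against 1761 and 1786 in input, with 2 of 10 higher and 6 lower, among them Apod (-2.84) and Fn1 (-2.75). Macrophage and immune markers summed to 96.1 and 90.0 CPM in IP, against 224 and 223 in input, with 1 of 8 higher, 6 lower and Mrc1 at 0 in IP. Endothelial and mural markers summed to 109 and 87.6 CPM in IP, against 171 and 167 in input, with 0 of 4 higher and 2 lower. Erythroid markers summed to 3.04 and 2.26 CPM in IP, against 2322 and 2364 in input, with 4 of 4 lower and Hbb-bt and Alas2 at 0 in IP. Tested markers at or near 0 in IP, such as Hbb-bt and Ncmap, passed the filter on low counts through input only. With library totals the summed level stayed lower in IP for each of these lists except the endothelial and mural one, which held 150 and 122 CPM in IP against 124 and 120 in input. The calls with library totals were 4 higher and 6 lower for satellite glia, 3 and 7 for Schwann cells, 4 and 4 for fibroblasts, 3 and 2 for macrophage and immune markers, 2 and 1 for endothelial and mural markers, and 0 and 4 for erythroid markers. The part of other cells in the values of Ncam1, Map2 and Mapt was not tested. Among markers of neuron types, nociceptor markers had 7 of 14 tested genes higher and 5 lower, and mechanoreceptor and proprioceptor markers 2 of 7 higher and 3 lower. With library totals these were 10 higher and 3 lower, and 5 higher and 1 lower. The mechanoreceptor and proprioceptor counts with TMM lie near the shares over all genes. With TMM the log2 ratios of the nociceptor markers ran from -4.55 to 2.46. Mrgprd, a nociceptor marker that was not tested, was at 0 in IP and had 9 and 16 counts in the input pools with and without e5UTR. Very low or absent counts in IP were thus not limited to markers of other cells.

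The genes whose levels over the 4 pools were most like those of Avil, by Euclidean distance between centred log2 CPM, were ENSMUSG00000133510 (0.0373), Mboat7 (0.056), Mcam (0.0727), Farsb (0.0873) and Pfkfb4 (0.092). Their log2 IP-to-input ratios lay between 1.92 and 2.01, beside 1.92 for Avil. Over 4 points, such a likeness is a description only.

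With AAV-e5'UTR added to the hairpin, 2 of the 10 genes, Uchl1 and Sncg, were called in IP, and both were slightly higher. The test of e5UTR compares the reads of a pool with those of another pool, not the conditions, and has no replicate check. Uchl1 was higher with e5UTR in IP, at a ratio of 1.1 (1.08 to 1.12) and 0.14 ± 0.02 on the log2 scale, with an edgeR adjusted p of 7.9e-06. Sncg was higher at 1.08 (1.06 to 1.1) and 0.12 ± 0.02, with an edgeR adjusted p of 2.2e-04. Of all genes 11.0% were called (4.71% higher), 381 higher and 505 lower, and with DESeq2's size factors the split was 184 and 713. Under those size factors Sncg was 0.05 with an adjusted p of 0.221. Leaving out any 1 of the 6 IP columns gave 0.04 to 0.06 for Uchl1 with adjusted p-values of 0.108 to 0.28, and 0.01 to 0.04 for Sncg with adjusted p-values of 0.459 to 0.814. With those columns left out, the median of all genes lay between -0.10 and -0.09, against 0 with all columns. Both calls were therefore lost with any 1 IP column left out. Pou4f1 had 121 counts in IP with e5UTR and 161 with the hairpin alone, a ratio of 0.691 (0.541 to 0.88) and -0.53 ± 0.18 on the log2 scale, and was not called (edgeR adjusted p 0.0606). It was called in 5 of 19 alternatives, with adjusted p-values from 0.0217 to 0.171 over them. The other 7 genes had IP ratios from 0.833 (0.625 to 1.11) for Rbfox3 to 1.3 (0.932 to 1.84) for Isl1, and each interval includes 1. Thy1, at 0.978 (0.921 to 1.04), was the most narrowly bounded of these, and Avil stood at 0.966 (0.856 to 1.09).

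In input, 0 of the 10 genes were called for e5UTR, where 0.198% of all genes were (16 genes in edgeR, and 394 at an unadjusted p under 0.05). DESeq2 and limma's voom also called 0 of the 10. Isl1 alone of the 10 had an unadjusted p below the threshold in edgeR's fit. Isl1 had 20 counts in input with e5UTR and 35 with the hairpin alone, a ratio of 0.574 (0.314 to 1.02), and Avil had 60 and 43 counts, a ratio of 1.4 (0.932 to 2.12). The highest ratio was 1.54 (0.803 to 3.02) for Pou4f1, and the input interval of each of the 10 genes includes 1. For Uchl1 it was 0.975 (0.936 to 1.02) and for Sncg 0.983 (0.944 to 1.03).

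The e5UTR ratio in IP was set against that in input, again on the reads of these pools and with no replicate check. Uchl1 differed by 0.18 ± 0.04 on the log2 scale (edgeR adjusted p 0.00145) and Sncg by 0.14 ± 0.04 (adjusted p 0.0173), both higher in IP, where 5.11% of all genes were called (1.57% higher), 127 higher and 286 lower. With DESeq2's size factors that split was 56 and 364, and neither gene was called, at 0.11 and 0.07. Without any 1 IP column Uchl1 was at 0.08 to 0.10 and Sncg at 0.04 to 0.06, and neither was called. Without the second input column with e5UTR, or without the first or second input column of the hairpin alone, Sncg was at 0.13 to 0.14 and not called. The transcription factors lay on opposite sides. For Isl1 the ratio of ratios was 2.26 (1.15 to 4.56) and for Pou4f1 0.451 (0.219 to 0.907), but the edgeR adjusted p-values were 0.163 and 0.199. The counts behind them were 17 to 161 a pool.

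**Figure D5:**
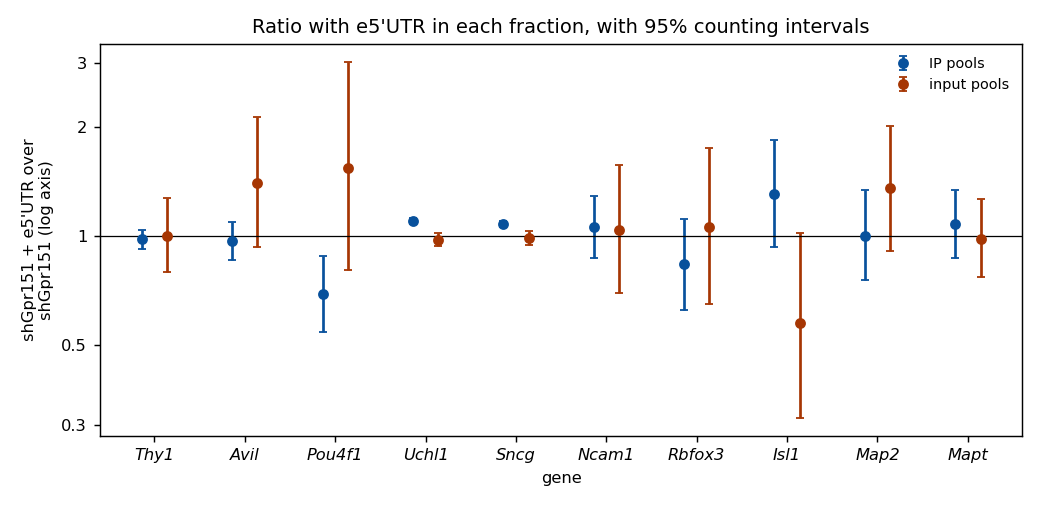
Ratio of pools with e5UTR to pools with the hairpin alone for each of the 10 genes, in IP and in input, with 95% counting intervals on a log axis. The IP intervals of Uchl1 and Sncg lie just above 1 and that of Pou4f1 below 1, and every input interval includes 1.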

How the data were processed

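The authors deposited 1 table of estimated counts per Ensembl gene, written as whole numbers, whose 12 columns carry the names of the 12 samples. RNA was made into libraries with the Oxford Nanopore kit for barcoded cDNA-PCR, per the labels' protocols. Among tools and builds, minimap2, Salmon, GRCm39 and mm39 appear in the submitters' processing notes, with no versions or roles. For the counting settings, annotation and strand use the sources used here say nothing. Symbols were found for 13191 gene IDs (89.9%).

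The members and gene lists were chosen with earlier results of these data known. The named genes are the 10 members, Gpr151, the tested relatives, the 3 highest and 3 lowest of 2 lists, the most counted markers of other cell types, and the 5 genes nearest to Avil. Some genes that fall under this rule are not reported here. Markers at 0 in IP were named after their values were seen. Genes were filtered with filterByExpr (minimum count 10, minimum total 15), leaving 8085. IP and input were compared with edgeR 4.0.16 in R 4.3.3 (quasi-likelihood test, TMM, Benjamini-Hochberg) on 4 pools, and e5UTR on the 12 columns as 4 group means. The 2 pools of a fraction differ in treatment, so the p-values for IP against input rest on a spread that holds the treatment difference. No label says that columns came from separate animals, so the p-values for e5UTR and the interaction reflect spread that may be technical. Amplified reads without molecular identifiers are not independent molecules. The biological coefficient of variation was 10.31% between pools and 2.58% between columns. DESeq2 1.42.0 and limma 3.58.1 (voom) were alternatives, beside other scalings and filters, left-out columns and pools, and the replicate block. The steps were tested on simulated counts in which a small share of genes was changed, as many up as down. This does not check TMM scaling for IP against input, where most genes were called. Python 3.11.15, scipy 1.17.1 and matplotlib 3.10.9 were used for intervals and plots.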

Additional observations from a re-analysis of the deposited data

Results flagged for a closer look

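Uchl1 differed between fractions in its e5UTR ratio: the interaction on the log2 scale was 0.18, with an edgeR adjusted p of 0.00145, and its e5UTR ratio was 1.1 in IP and 0.975 in input. Sncg did likewise at 0.14, with an edgeR adjusted p of 0.0173, and ratios of 1.08 in IP and 0.983 in input. What flagged both is a difference between fractions in the same contrast. With 1 pool per treatment and fraction, these p-values come from the spread between columns of a pool, so they compare the reads of these pools and not the conditions, and no replicate checks the difference. Neither gene was called without any 1 of the 6 IP columns.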

How the results depend on the processing

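Avil, Thy1, Pou4f1, Uchl1 and Sncg were called higher in IP under all 27 alternatives, and Mapt was called lower in all but the library total. Of the 27, 12 left out 1 column of a pool, so the alternatives are not independent checks. The fits on 12 columns and on the columns of 1 treatment count the columns of a pool as replicates, so they are not checks by replicates. Pou4f1 passed the filter on low counts only through IP. With the library total, Isl1 (0.88) and Map2 (0.32) reversed. For e5UTR in IP, 2 of the 10 genes were called, against 1 with DESeq2 and 0 to 3 with 1 column left out. For the interaction, 2 were called, against 0 with DESeq2's size factors, 1 with the library total, 1 with no filter, 0 with DESeq2 and 0 to 2 with 1 column left out. For IP against input, 7 to 8 were called with 1 column left out and 6 to 7 with 1 pool left out (the lone pool of a fraction is assumed to vary like the others), and the count over all genes ran from 4832 to 5587. The split of e5UTR calls in IP was 381 higher and 505 lower, against 86 to 108 and 625 to 647 without any 1 IP column. The cause of these changes was not tested. The replicate block gave 6148 calls for IP against input on 12 columns, against 6194 without it, and 816 for e5UTR in IP, 16 in input and 396 for the interaction, with 8, 2, 0 and 2 of the 10 genes. The deviations of same-numbered columns from their group means correlated at -0.063 to 0.04, and 2 of 12 columns correlated best with their own number. Columns of a group differ by little more than counting noise. The check therefore cannot say whether same-numbered columns share an animal or a preparation. Low counts limit Isl1, Pou4f1, Rbfox3 and Map2: their pools held 17 to 161 counts. In the input pools with and without e5UTR, Avil held 60 and 43 counts and Ncam1 52 and 50, so their ratios carry this limit too. It also holds for the ratios set against that of Avil.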
